A study of Homo sapiens with 30 samples.

Results

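The genes described here are OLFM4, LCN2, the mucins MUC1, MUC4, MUC6, MUC16 and MUC20, and the adhesion molecules CEACAM1, CEACAM5 and CEACAM6. They are 10 of 60612 genes in the RBPMS knockout count table, where they were found by Ensembl identifier, and 10 of 56303 in the overexpression and knockdown tables, where they were found by symbol. The set was chosen by measured values, namely the loss of OLFM4 in both knockout groups and the gain of MUC6 after siANKRD10-2. In the comparisons KO1 with WT1, KO2 with WT2 and siANKRD10-2 with siNC the values of these 10 genes are therefore given as a description, without a test.

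All libraries came from 5637 cells, an established human bladder carcinoma line. The study asked how the RNA-binding protein RBPMS and the splice forms of its target ANKRD10 act on these cells. The knockout table holds the control groups WT1 and WT2 and the RBPMS knockout groups KO1 and KO2, made with CRISPR plasmids carrying different guide RNAs. The study's text speaks of clonal expansion of knockout cells and calls its control cells sgCtrl, while the labels call the controls WT and do not say whether KO1 and KO2 are each 1 clone. The overexpression table holds Vector, ANKRD10-1 and ANKRD10-2, named for the longer and the shorter ANKRD10 form carried by the plasmid, and the knockdown table holds siNC, siANKRD10-1 and siANKRD10-2, named for the siRNA. The labels give 5637 alone as the cells of the last 6 groups, while the study's text places ANKRD10-1 overexpression and siANKRD10-2 in RBPMS knockout cells; this could not be settled. Each group has 3 libraries that no label ties to separate cultures, so a p-value measures only the spread between those libraries.

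Mucins are heavily O-glycosylated proteins that coat and protect epithelia. MUC1, MUC4, MUC16 and MUC20 span the cell membrane, and MUC6 is a secreted gel-forming mucin of gastric glands. CEACAMs are adhesion molecules of the immunoglobulin superfamily: CEACAM1 carries inhibitory signalling motifs in its tail, and CEACAM5, the carcinoembryonic antigen, and CEACAM6 are held by a lipid anchor. OLFM4 is a secreted glycoprotein of intestinal crypt cells and neutrophils, and LCN2 binds bacterial siderophores and is made by inflamed epithelium.

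The sequence before the start of OLFM4 is shown because this gene had the largest fold change of the set. RefSeq (GRCh38.p14) gives these bases of the plus strand at chr13:53028563-53028788, with a TATAA in capitals:

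OLFM4: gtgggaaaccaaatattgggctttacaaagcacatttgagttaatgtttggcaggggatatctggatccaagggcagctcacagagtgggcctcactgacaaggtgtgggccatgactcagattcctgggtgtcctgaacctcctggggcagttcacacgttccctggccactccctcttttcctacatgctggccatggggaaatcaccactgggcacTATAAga

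The TATAA begins 31 bases before the RefSeq start. GENCODE, whose gene bounds are used for the positions elsewhere, starts OLFM4 earlier, at 53028759, so that the TATAA lies within its gene. On the sense strand, 3.89% of 35116 RefSeq promoters have a TATAA beginning 40 to 21 bases before the start.

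The CEACAM promoters are shown because their genes have related sequence and were measured at different levels, and because the study tested E-boxes, the CACGTG element to which MYC binds. CACGTG reads the same on both strands. It is in capitals in the stretches of CEACAM5 (chr19:41708556-41708585, plus strand) and CEACAM6 (chr19:41755461-41755490, plus strand), and the CEACAM1 stretch is the one aligned with CEACAM6 (chr19:42528517-42528546, minus strand):

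CEACAM5: tgaataaagaccacacccatgaccCACGTG
CEACAM6: tgaacagagaccgcacccatgaccCACGTG
CEACAM1: tcctggacaaaccccgccccagcacacatg

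The 250 bases before the start were 74.6% identical between CEACAM5 and CEACAM6, and 68.2% between CEACAM6 and CEACAM1. CACGTG was in 6.34% of all 35116 promoter windows of 250 bases, in those of CEACAM5 and CEACAM6, and in none of those listed for OLFM4, LCN2, MUC1, MUC4, MUC16 and CEACAM1. MUC6 and MUC20 had no entry. A match is a description of the letters in this window.

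Library totals were 44593108 to 69723937 counts in the knockout table, 31736779 to 47493499 in the overexpression table and 28511029 to 32784584 in the knockdown table. Levels are given as counts per 1000000 counts of the TMM-scaled library total (CPM), and fold changes and adjusted p-values come from edgeR's quasi-likelihood test with Benjamini-Hochberg adjustment over all genes that passed the filter on low counts. RBPMS was 40.4 ± 1.66 CPM in WT1 and 43.1 ± 0.937 in WT2, against 14.9 ± 0.505 in KO1 and 20.3 ± 1.23 in KO2 (SD, n = 3). ANKRD10 was 149 ± 0.442 CPM in Vector, 237 ± 4.65 in ANKRD10-1 and 197 ± 11.4 in ANKRD10-2, and 56.5 ± 2.40 in siNC, 47.7 ± 2.17 in siANKRD10-1 and 47.5 ± 0.841 in siANKRD10-2 (SD, n = 3). In the knockout table it was 195 ± 4.65 CPM in WT1 and 190 ± 5.77 in WT2, against 86.3 ± 4.21 in KO1 and 113 ± 4.15 in KO2 (SD, n = 3). These counts per gene do not separate the splice forms. All 7 epithelial markers, EPCAM, CDH1 and keratins, were found in each table, summing to 2691 to 5609 CPM per library. The sum moved with the groups of the ANKRD10 experiments without overlap with the controls, at 2691 to 2876 CPM in Vector, 3035 to 3099 in ANKRD10-1 and 3075 to 3500 in ANKRD10-2, and at 5284 to 5609 CPM in siNC, 4394 to 4734 in siANKRD10-1 and 3231 to 3362 in siANKRD10-2. In the knockout table the epithelial sum was 3889 to 4131 CPM in KO1, above the 3783 to 3853 of WT1, while KO2 overlapped WT2. The urothelial markers UPK1A, UPK1B and UPK3A stayed under 1 CPM in every library, while TP63 led that list. The urothelial sum was below its controls in both knockouts. It was 257 to 266 CPM in KO1 against 358 to 368 in WT1, and 323 to 331 in KO2 against 349 to 354 in WT2. TP63 alone had a mean of 217 CPM in that table. The sum was 283 to 303 CPM in ANKRD10-2, above the 252 to 260 of Vector, which ANKRD10-1 overlapped at 257 to 264. It was 163 to 167 CPM in siANKRD10-1, below the 168 to 174 of siNC, which siANKRD10-2 overlapped at 162 to 177.

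The order of levels within a library was compared per kilobase of exon. In WT1, LCN2 was far above the rest at 515 ± 11.5 CPM per kb, followed by MUC16 at 7.19 ± 0.813 and OLFM4 at 3.32 ± 0.226. CEACAM1 at 0.867 ± 0.169 and MUC4 at 0.804 ± 0.0940 did not differ beyond their spread, and MUC20 and MUC1 were below them at 0.473 ± 0.0815 and 0.196 ± 0.0257 CPM per kb. CEACAM5 (0.0623 ± 0.0407), CEACAM6 and MUC6 were at or near 0 in WT1. The order was another in the tables of the ANKRD10 experiments, which were normalized separately: in Vector LCN2 reached 13477 ± 293 CPM per kb, MUC1 (2.05 ± 0.102) and CEACAM1 (1.93 ± 0.127) came next without differing beyond their spread, and OLFM4 was 0.0591 ± 0.0524. LCN2 alone took 2.16 to 2.46% of all counts in the overexpression libraries, 0.593 to 0.731% in the knockdown libraries and 0.0709 to 0.110% in the knockout table.

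OLFM4 was lost in both knockout groups. WT1 libraries held 467, 517 and 693 OLFM4 counts and WT2 libraries 494, 464 and 449, or 8.96, 9.59 and 10.3 CPM and 7.35, 8.33 and 6.35 CPM. KO1 libraries held 4, 0 and 4 counts, and KO2 libraries 0, 0 and 0. No knockout library came near a WT library. The ratio of summed counts was 196-fold lower in KO1 (exact 95% interval 99.1 to 454, counting error only), and OLFM4 was at least 137-fold lower in KO2, taking 3 counts as the most that a library at 0 allows. On the log2 scale WT2 lay at -0.39 against WT1 (SE 0.12, adjusted p = 0.18, edgeR). OLFM4 was also close to absent in every library of the ANKRD10 experiments: Vector held 0, 8 and 14 counts, siNC 0, 0 and 0, and the treated groups 0 to 4. These experiments could therefore not show a fall of OLFM4, and none of them raised it above 4 counts. RBPMS was 5.14 ± 0.36 CPM in Vector and 5.01 ± 0.749 in siNC (SD, n = 3). These RBPMS values were below both knockout groups, but the tables were normalized separately, and OLFM4 was near 0 in Vector and at 0 in siNC. No relation of RBPMS to OLFM4 across tables was tested.

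OLFM4 is also made by neutrophils and intestinal crypt cells, so markers of other cells were read. The 4 neutrophil markers MPO, ELANE, CSF3R and FCGR3B summed to 0 to 0.121 CPM per library in the knockout table, and the leukocyte markers PTPRC, CD3E and MS4A1 were at 0 counts in all 12 of its libraries. LGR5, which marks crypt stem cells, stayed under 1 CPM in every library of the series. CDX2, VIL1 and LGR5 together summed to 7.69 to 14.2 CPM in the knockout table. Most of this was CDX2, at a mean of 9.50 CPM, with VIL1 under 1 CPM. The sum was 11.4 to 14.2 CPM in KO2, above the 7.69 to 9.22 of WT2. In KO1 it was 8.23 to 9.03, overlapping the 8.72 to 10.4 of WT1. VIL1 led this list in the other tables. The fibroblast markers COL1A1, COL1A2, DCN, LUM and PDGFRB summed to 32.6 to 56.3 CPM in the knockout table, mostly COL1A1 at a mean of 46.2 CPM. Their sum was 32.6 to 38.1 in KO1 against 52.6 to 56.3 in WT1, and 49.8 to 52.3 in KO2 against 55.1 to 56.2 in WT2. The endothelial markers PECAM1, VWF and CDH5 summed to 1.36 to 3.06 CPM there.

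**Figure D1:**
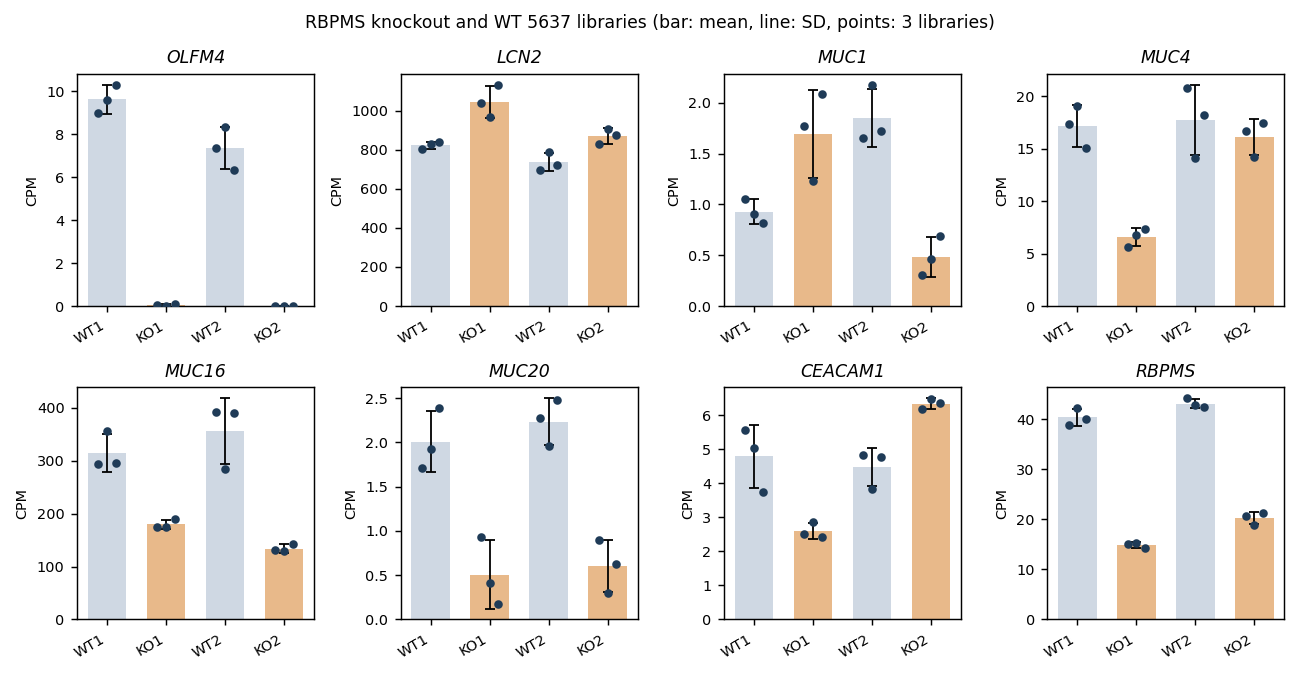
CPM of 7 of the genes and of the targeted gene RBPMS in WT1, KO1, WT2 and KO2, with bars for the mean, lines for the SD and points for the 3 libraries of each group. OLFM4 is at 6.35 to 10.3 CPM in the 6 WT libraries and at 0.0771 CPM or lower in the 6 knockout libraries, MUC16 and MUC20 are lower in both knockouts, and MUC1 and CEACAM1 lie on opposite sides of their controls in KO1 and KO2.

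The membrane mucins were lower in the knockouts with 1 exception, MUC1 in KO1, and with MUC4 in KO2 overlapping its controls. MUC16 was the most abundant mucin, at 294, 356 and 295 CPM in WT1 and 392, 284 and 390 in WT2, and at 175, 174 and 190 CPM in KO1 and 131, 128 and 143 in KO2. Every knockout library was below every WT library, and the log2 fold changes were -0.81 (SE 0.07) in KO1 and -1.41 (SE 0.10) in KO2. MUC20, a mucin that binds the receptor MET, was 1.71, 1.93 and 2.39 CPM in WT1 and 2.28, 1.96 and 2.47 in WT2, and fell to 0.936, 0.410 and 0.174 CPM in KO1 and 0.893, 0.299 and 0.626 in KO2. Its log2 fold changes were -1.96 (SE 0.48) and -1.88 (SE 0.35). The MUC20 values are uncertain, since 64.3% of the 75-base stretches of its longest coding transcript also occur in MUC20-OT1, a transcript that overlaps it on the same strand and was measured at 10.5 to 16.1 CPM.

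MUC4, which partners with the receptor ERBB2, separated the knockouts. It was 17.3, 19.1 and 15.1 CPM in WT1 and 5.60, 6.82 and 7.35 CPM in KO1, without overlap and at a log2 fold change of -1.38 (SE 0.13). In KO2 it was 16.7, 14.2 and 17.4 CPM, within the 20.8, 14.2 and 18.2 CPM of WT2, at -0.14 (SE 0.13). MUC1 went the opposite way in the knockouts, with 1.77, 1.23 and 2.08 CPM in KO1 against 1.06, 0.909 and 0.816 in WT1, and 0.304, 0.458 and 0.689 CPM in KO2 against 1.65, 2.17 and 1.73 in WT2. The log2 fold changes were 0.87 (SE 0.30) and -1.93 (SE 0.34). The KO1 libraries overlapped those of WT2, and MUC1 was 1.00 (log2, SE 0.26) higher in WT2 than in WT1 (adjusted p = 0.11, edgeR), so that with all 6 WT libraries as controls its KO1 fold change was 0.29. MUC6 had 0 counts in all libraries of this table except 13 in 1 of WT2 and 9 in 1 of KO2.

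CEACAM1 also differed in direction. It was 5.57, 5.04 and 3.75 CPM in WT1 against 2.52, 2.87 and 2.41 in KO1, and 4.82, 3.82 and 4.77 CPM in WT2 against 6.18, 6.48 and 6.35 in KO2. KO1 libraries were all below, and KO2 libraries all above, every WT library, with log2 fold changes of -0.88 (SE 0.20) and 0.50 (SE 0.14). CEACAM5 had 17, 13 and 4 counts in WT1, 12, 9 and 16 in WT2, 0 in KO1 and 0, 15 and 0 in KO2. CEACAM6 had 20, 26 and 13 counts in WT2 and at most 8 in any other library of the knockout table, WT1 included, so the KO2 value of -3.33 (SE 1.05) rests on control libraries that WT1 did not match. LCN2 was 1041, 967 and 1131 CPM in KO1 against 802, 829 and 837 in WT1, and 828, 909 and 873 in KO2 against 699, 789 and 722 in WT2. It was above its own controls in every knockout library, by log2 0.35 (SE 0.06) and 0.24 (SE 0.05). The KO2 libraries overlapped those of WT1, and WT2 lay at -0.16 against WT1 (SE 0.04, adjusted p = 0.14, edgeR).

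In KO1, 7 of the 10 genes passed the filter and all 7 were past an adjusted p of 0.05, 2 higher and 5 lower. In KO2, 9 passed the filter and 7 were past the threshold, 2 higher and 5 lower. Of all genes tested in KO1, 36.1% were called, 17.9% higher and 18.2% lower. In KO2 38.5% were called, 19.3% higher and 19.2% lower. These contrasts chose the set, so nothing is read from its counts. OLFM4 passed the filter in both comparisons through the WT libraries, and CEACAM6 in KO2 through those of WT2, where these genes were high. In the comparison of WT2 with WT1, which the choice did not use, 0 of 9 genes tested passed the threshold in edgeR, 4 had an unadjusted p under 0.05 and 1 passed in DESeq2 (LCN2, -0.16), beside 1.23% of all genes called by edgeR.

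The genes around some of these loci moved with them in the knockouts. In KO1, 27 of 39 tested genes within 1 Mb of MUC16 were lower and 0 higher, with a median log2 fold change of -0.52, and around CEACAM1 15 of 27 were lower and 0 higher, with a median of -0.58. Both loci are on chromosome 19, whose 1197 tested genes had a median of -0.38 in KO1, the lowest of 23 chromosomes. In KO2 the medians of the neighbours were -0.012 for MUC16 and 0.11 for CEACAM1. The fall of MUC16 in KO2 was thus measured beside neighbours that did not move on balance, and those in KO1 beside neighbours that fell. Around OLFM4 the median was 0.0039 over 14 genes in KO1, with 0 called, and -0.63 over 13 genes in KO2, with 7 lower and 0 higher. The tested gene nearest to OLFM4 was SUGT1, 327850 bases away, at 0.05 (SE 0.08, adjusted p = 0.64) in KO1 and -0.53 (SE 0.07, adjusted p = 0.00010) in KO2 (edgeR). Around LCN2, on chromosome 9, 25 of 65 neighbours were higher and 4 lower in KO1 (median 0.17), the same direction as LCN2. Chromosome 9 had the highest median of 23 chromosomes in KO1 (0.070). In KO2, 29 of 64 neighbours of LCN2 were lower and 5 higher (median -0.23), while LCN2 itself was higher. In KO2 chromosome 9 had the lowest median of 23 chromosomes (-0.41, with 398 of 724 tested genes lower), and chromosome 13, which holds OLFM4, the second lowest (-0.17). The part of these regional shifts in the values of MUC16, CEACAM1, OLFM4 and LCN2 was not tested. In the ANKRD10 experiments the medians around MUC16, CEACAM1 and OLFM4 stayed between -0.08 and 0.18.

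Overexpression of ANKRD10 was measured with lower CEACAM1, MUC16 and MUC4 for both forms, and CEACAM1 and MUC16 were lower still for ANKRD10-2. CEACAM1 was 11.5, 10.3 and 10.3 CPM in Vector, 7.72, 6.80 and 6.66 in ANKRD10-1 and 5.53, 4.99 and 4.77 in ANKRD10-2. The 3 groups did not overlap. CEACAM1 fell by 0.60 on the log2 scale (SE 0.09, adjusted p = 0.00066) in ANKRD10-1 and by 1.07 (SE 0.10, adjusted p = 7.8e-06) in ANKRD10-2, and ANKRD10-2 was below ANKRD10-1 by log2 -0.47 (SE 0.12, adjusted p = 0.016, edgeR). The last call was lost without ANKRD10-1 replicate 1 (-0.40, adjusted p = 0.11) or ANKRD10-2 replicate 3 (-0.42, adjusted p = 0.065, edgeR).

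MUC16 took the same order, at 67.4, 83.0 and 72.4 CPM in Vector, 59.9, 60.0 and 55.7 in ANKRD10-1 and 42.4, 45.8 and 42.8 in ANKRD10-2. The groups again did not overlap. MUC16 fell by 0.34 (log2, SE 0.06, adjusted p = 0.0035) in ANKRD10-1 and by 0.76 (SE 0.07, adjusted p = 5.4e-06) in ANKRD10-2, and the difference between the forms was -0.42 (SE 0.06, adjusted p = 0.00011, edgeR). These calls held under all 11 alternatives. MUC4 was 33.2, 38.8 and 32.0 CPM in Vector, 30.1, 26.8 and 25.8 in ANKRD10-1 and 16.2, 25.9 and 24.7 in ANKRD10-2, where 1 library was apart from the other two. It fell by 0.33 (log2, SE 0.08, adjusted p = 0.015) in ANKRD10-1 and by 0.64 (SE 0.13, adjusted p = 0.0042) in ANKRD10-2, with -0.31 between the forms (SE 0.12, adjusted p = 0.11, edgeR). The latter was called with no filter on low counts (adjusted p = 0.0015) and without ANKRD10-2 replicate 2 (-0.43, adjusted p = 0.032, edgeR). The ANKRD10-1 call for MUC4 was lost without Vector replicate 2 (-0.24, adjusted p = 0.086), ANKRD10-1 replicate 2 (-0.31, adjusted p = 0.075) or ANKRD10-1 replicate 3 (-0.28, adjusted p = 0.083), and with all groups of the table in 1 fit (adjusted p = 0.13, edgeR).

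MUC6 was 2.02, 2.86 and 2.94 CPM in Vector, 1.88, 2.72 and 2.79 in ANKRD10-1 and 1.57, 1.78 and 1.17 in ANKRD10-2. Only the ANKRD10-2 libraries were all below Vector. MUC6 fell by 0.80 (log2, SE 0.21, adjusted p = 0.018) in ANKRD10-2, with -0.08 (SE 0.19, adjusted p = 0.86) in ANKRD10-1 and -0.72 (SE 0.21, adjusted p = 0.047) between the forms (edgeR). The fall was no longer called without ANKRD10-2 replicate 3 (-0.63, adjusted p = 0.078), Vector replicate 2 (-0.73, adjusted p = 0.068) or Vector replicate 3 (-0.69, adjusted p = 0.060, edgeR), and the difference between the forms was not called in DESeq2 (adjusted p = 0.085) or with all groups in 1 fit (adjusted p = 0.052, edgeR). That difference was also lost without ANKRD10-1 replicate 2 (-0.63) or 3 (-0.62) or ANKRD10-2 replicate 1 (-0.76) or 3 (-0.56), at adjusted p of 0.063 to 0.18 (edgeR). MUC1 was 9.68, 10.2 and 9.20 CPM in Vector and 13.5, 11.9 and 10.9 in ANKRD10-2, a rise of 0.33 (log2, SE 0.10, adjusted p = 0.029, edgeR). That call was lost in 5 of the 6 fits that leave out a library, at adjusted p between 0.052 and 0.11: those without ANKRD10-2 replicate 1 or 2 or any Vector replicate, at log2 0.24 to 0.36. MUC20 was 5.31, 6.27 and 4.78 CPM in Vector, 5.37, 4.49 and 5.24 in ANKRD10-1 and 3.82, 3.44 and 4.87 in ANKRD10-2, with -0.42 (SE 0.15, adjusted p = 0.068) for ANKRD10-2. It passed the threshold with no filter on low counts (adjusted p = 0.027), with all groups in 1 fit (adjusted p = 0.046), and without ANKRD10-2 replicate 3 (-0.57, adjusted p = 0.028) or Vector replicate 3 (-0.50, adjusted p = 0.043, edgeR). LCN2 stayed at 21015 to 24383 CPM in all 9 libraries, with log2 fold changes of 0.09 (SE 0.05, adjusted p = 0.35) and 0.07 (SE 0.04, adjusted p = 0.27, edgeR).

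OLFM4, CEACAM5 and CEACAM6 did not pass the filter on low counts. Of 7 genes tested, 3 were lower and 0 higher in ANKRD10-1, where 6.31% of all genes were called (3.5% higher, 2.81% lower), and 4 were lower and 1 higher in ANKRD10-2, where 19.9% were called (10.7% higher, 9.25% lower). Without Vector replicate 2, 3 genes were called in ANKRD10-2. Between the forms 3 of 7 were lower in ANKRD10-2 and 0 higher, where 7.26% of all genes were called (4.15% higher, 3.1% lower). The median log2 fold change of the 7 was -0.11 in ANKRD10-1 and -0.64 in ANKRD10-2, beside medians over all genes of -0.0035 and -0.0055. Both comparisons share the Vector libraries.

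**Figure D2:**
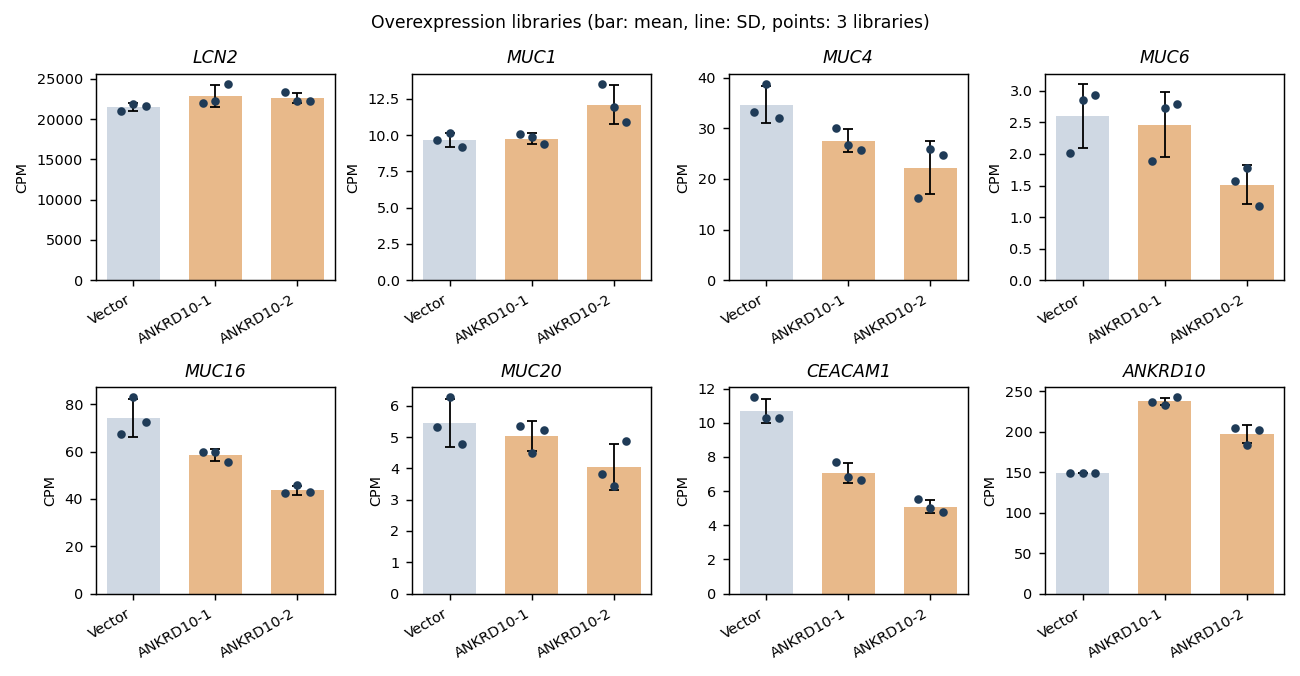
CPM of 7 of the genes and of ANKRD10 in Vector, ANKRD10-1 and ANKRD10-2 libraries, with bars for the mean, lines for the SD and points for the 3 libraries. CEACAM1 and MUC16 step down from Vector to ANKRD10-1 to ANKRD10-2 with no overlap between groups, while LCN2 stays at 21015 to 24383 CPM.

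After siANKRD10-2, MUC6 was the gene of the set that moved most. It was 3.65, 3.73 and 4.60 CPM in siNC (120, 120 and 146 counts) and 12.5, 12.1 and 19.2 CPM in siANKRD10-2 (366, 347 and 626 counts). All siANKRD10-2 libraries were above all others of the table, at a log2 fold change of 1.88 (SE 0.15), or 3.67-fold. It ranged from 1.63 to 2.00 over the alternatives. The summed epithelial markers were lowest of the knockdown table in the same group, and their part in this value was not tested. In siANKRD10-1, MUC6 was 4.56, 4.86 and 4.28 CPM, overlapping siNC, at 0.20 (SE 0.14, adjusted p = 0.43, edgeR). AP2A2, whose gene body ends 576 bases from that of MUC6, was 45.6, 47.8 and 45.7 CPM in siNC and 41.5, 40.3 and 48.2 CPM in siANKRD10-2, at -0.09 (SE 0.07, adjusted p = 0.29, edgeR). MUC2, the next tested gene on the other side at 38169 bases and a gel-forming mucin too, was lower at -0.59 (SE 0.14, adjusted p = 0.0020, edgeR). Within 1 Mb of MUC6, 30 of 67 tested genes were lower and 8 higher, with a median of -0.19, in siANKRD10-2.

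MUC16 was 33.6, 34.8 and 32.9 CPM in siNC, 25.4, 28.6 and 22.0 in siANKRD10-1 and 28.0, 25.4 and 31.3 in siANKRD10-2. All 6 siRNA libraries were below the 3 siNC libraries. MUC16 fell by 0.41 (log2, SE 0.08, adjusted p = 0.0030, edgeR) in siANKRD10-1, and was -0.25 (SE 0.07) in siANKRD10-2. MUC4 was 13.1, 11.1 and 9.70 CPM in siNC, 7.19, 9.16 and 7.26 in siANKRD10-1 and 9.52, 9.04 and 10.6 in siANKRD10-2. It fell by 0.52 (log2, SE 0.12, adjusted p = 0.010, edgeR) in siANKRD10-1, a call lost without siNC replicate 1 (-0.40, adjusted p = 0.079) or siANKRD10-1 replicate 1 (-0.46, adjusted p = 0.068, edgeR), and was -0.21 (SE 0.11) in siANKRD10-2. MUC20 was 2.01, 1.77 and 2.30 CPM in siNC and 1.52, 1.24 and 1.51 in siANKRD10-1, at -0.51 (SE 0.22, adjusted p = 0.15, edgeR). CEACAM1 was 3.71, 2.45 and 3.62 CPM in siNC, overlapping the 3.71, 3.59 and 3.33 of siANKRD10-1 and the 3.56, 3.89 and 4.27 of siANKRD10-2, at 0.12 (SE 0.17, adjusted p = 0.72, edgeR) and 0.26 (SE 0.17). LCN2 was 6132 to 6983 CPM in siNC and 6845 to 7272 in siANKRD10-1, at 0.11 (SE 0.06, adjusted p = 0.22), and was called without siNC replicate 3 (0.17, adjusted p = 0.024, edgeR). MUC1 stayed under 2 CPM in all 9 libraries, and CEACAM5 and CEACAM6 at 8 counts or fewer.

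In siANKRD10-1, 2 of 7 genes tested were lower and 0 higher, where 10.6% of all genes were called (5.08% higher, 5.52% lower). That count was 1 without siNC replicate 1 or siANKRD10-1 replicate 1. In siANKRD10-2, 1 was higher and 1 lower of 7, where 36.3% were called (17.6% higher, 18.7% lower), and nothing is read from that count. Both comparisons share the siNC libraries.

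**Figure D3:**
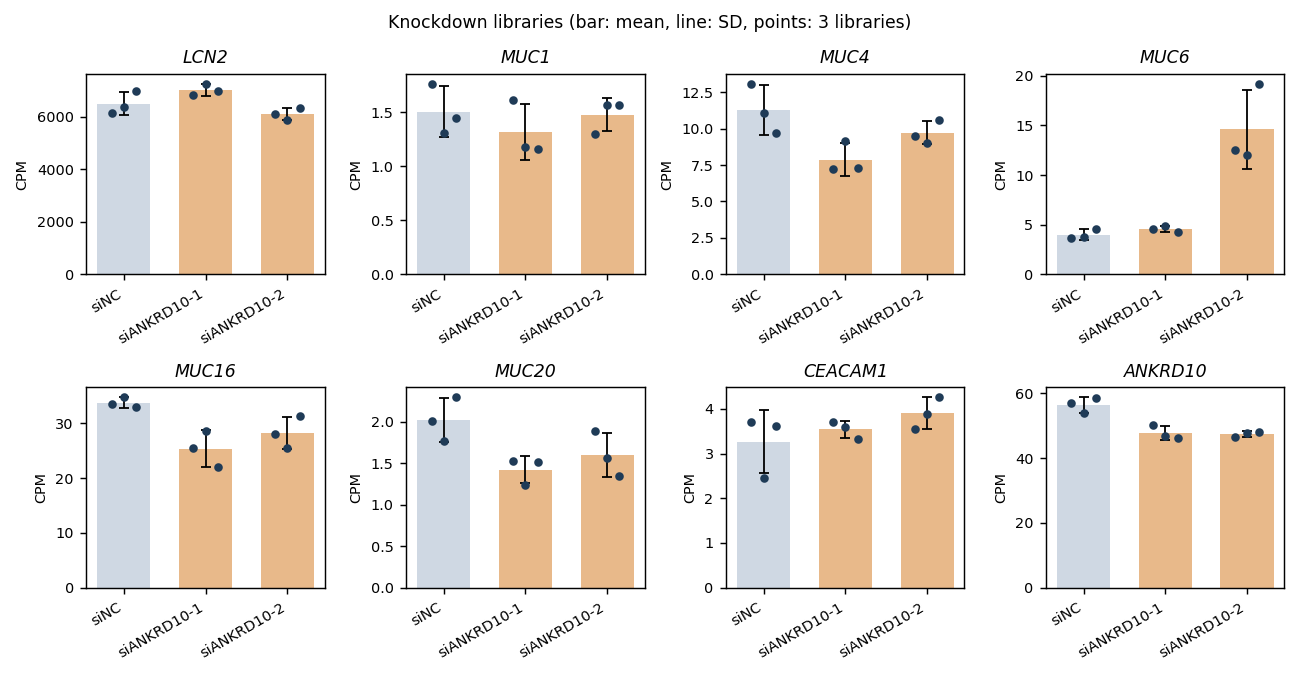
CPM of 7 of the genes and of ANKRD10 in siNC, siANKRD10-1 and siANKRD10-2 libraries, with bars for the mean, lines for the SD and points for the 3 libraries. MUC6 is at 12.1 to 19.2 CPM in siANKRD10-2 and at 4.86 CPM or lower elsewhere, and MUC16 is below its siNC level in all 6 siRNA libraries.

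Side by side, the log2 fold changes of the membrane mucins MUC16, MUC4 and MUC20 were below 0 in each of the 6 treated groups. The membrane mucin MUC1 was not, at 0.87 in KO1, -1.93 in KO2 and 0.33 in ANKRD10-2. The values in KO1, KO2 and siANKRD10-2 belong to the contrasts that chose the set, and those of MUC20 are uncertain as stated above. MUC16 ranged from -0.25 in siANKRD10-2 to -1.41 in KO2, without overlap with its own controls in any of them. MUC4 ranged from -0.14 in KO2 to -1.38 in KO1, with overlapping libraries in KO2 and siANKRD10-2. MUC20 ranged from -0.11 in ANKRD10-1 to -1.96 in KO1, with overlapping libraries in ANKRD10-1, ANKRD10-2 and siANKRD10-2. CEACAM1 was lower in KO1 and both overexpression groups and higher in KO2.

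**Figure D4:**
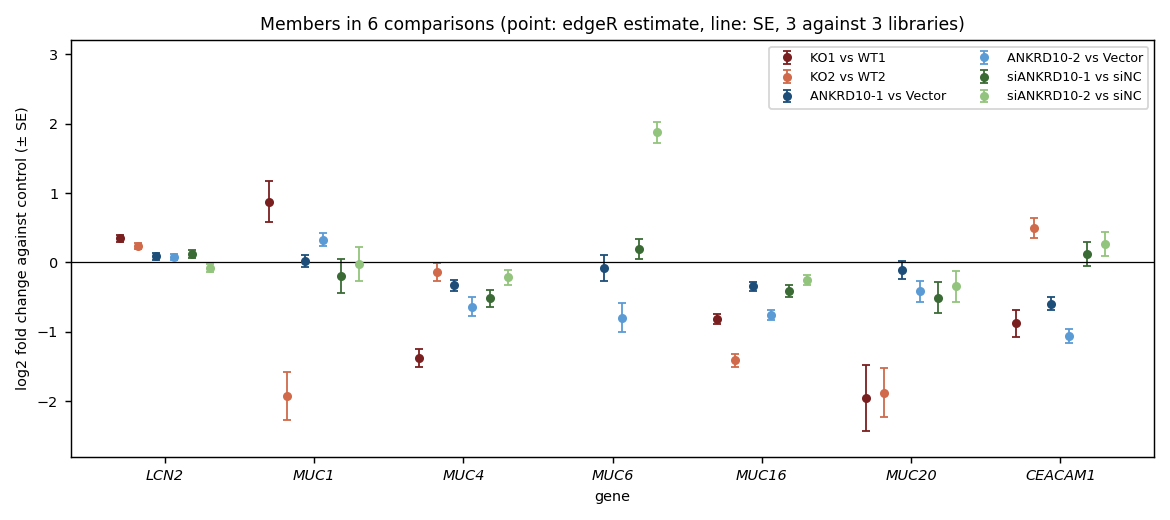
Log2 fold change against the group's own control for 7 of the genes in 6 comparisons, with lines for the SE (edgeR, 3 against 3 libraries). MUC16 is below 0 throughout, from -0.25 to -1.41, MUC6 stands at 1.88 in siANKRD10-2 and is not drawn for the knockouts, and MUC1 and CEACAM1 lie on both sides of 0.

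Genes that work with these proteins were read from lists. The lists were chosen with earlier results of these data known, so their counts and p-values describe these libraries and are not independent evidence. The counts stand against the share of all genes called in each comparison, which was 36.1% in KO1, 38.5% in KO2, 6.31% in ANKRD10-1, 19.9% in ANKRD10-2, 10.6% in siANKRD10-1 and 36.3% in siANKRD10-2. Of the enzymes that build mucin O-glycans, 9 of 23 tested were called in KO1 (6 higher, 3 lower, median log2 fold change 0.08) and 12 of 23 in KO2 (7 higher, 5 lower, median 0.03), where 36.1 and 38.5% of all genes were called, and beside medians over all genes of -0.0020 and -0.016. ST6GALNAC4 rose by 0.80 (SE 0.12, adjusted p = 0.00049) and GALNT5, which starts O-glycan chains, fell by 0.74 (SE 0.10, adjusted p = 0.00014) in KO1, and in KO2 GALNT14 rose by 0.76 (SE 0.06, adjusted p = 1.7e-06) and ST6GALNAC2 fell by 1.23 (SE 0.13, adjusted p = 1.7e-05, edgeR). In ANKRD10-1 0 of 24 were called by edgeR, 4 had an unadjusted p under 0.05 and DESeq2 called 1, and in ANKRD10-2, where 19.9% of all genes were called, 4 of 23 were higher and 5 lower. GCNT1, a core branching enzyme, rose in ANKRD10-2 (0.35, SE 0.09, adjusted p = 0.011) and in siANKRD10-1 (0.80, SE 0.16, adjusted p = 0.0033, edgeR), where 3 of 21 were higher and 1 lower. In siANKRD10-2, 2 of 21 were higher and 4 lower, against 36.3% of all genes called, with GALNT1 at -0.78 (SE 0.07, adjusted p = 1.1e-09, edgeR).

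Among secretory and goblet cell genes, AGR2, a protein disulphide isomerase needed to fold mucins, fell in both knockouts and after both siRNAs. Its log2 fold changes were -1.11 (SE 0.10, adjusted p = 1.4e-05) in KO1, -1.88 (SE 0.11, adjusted p = 7.7e-08) in KO2, -1.03 (SE 0.13, adjusted p = 3.1e-05) in siANKRD10-1 and -0.94 (SE 0.12, adjusted p = 9.3e-07) in siANKRD10-2 (edgeR). AGR2 was also 0.59 higher in WT2 than in WT1 (SE 0.08, adjusted p = 0.0025, edgeR). Of the tested genes of this list, 3 of 4 were lower in KO1, 2 of 6 in KO2, 0 of 4 in ANKRD10-1 (1 at an unadjusted p under 0.05, 0 by DESeq2), 1 of 4 in ANKRD10-2, 1 of 5 in siANKRD10-1 and 1 of 4 in siANKRD10-2. The 1 higher was WFDC2 in siANKRD10-2 (0.32, SE 0.07, adjusted p = 0.00084, edgeR).

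Of the mucosal defence genes, PIGR, which carries dimeric IgA across epithelia, fell by 2.65 (SE 0.43, adjusted p = 0.00065) in KO1 and by 3.06 (SE 0.41, adjusted p = 9.2e-05) in KO2 (edgeR). S100P rose by 0.48 (SE 0.14, adjusted p = 0.018) in KO1 and S100A8 by 0.81 (SE 0.06, adjusted p = 1.1e-06, edgeR) in KO2. S100A7 rose by 0.27 (SE 0.06, adjusted p = 0.00065, edgeR) in siANKRD10-2. In KO1 2 of 9 tested were higher and 3 lower (median 0.06), and in KO2 3 of 8 were higher and 3 lower (median -0.06), against 36.1 and 38.5% of all genes called. In ANKRD10-2, where 19.9% of all genes were called, 5 of 6 were lower and 0 higher, with a median of -0.83, and S100A7 fell by 0.95 (SE 0.07, adjusted p = 4.5e-07, edgeR). In ANKRD10-1 edgeR and DESeq2 called 0 of 6, with 1 at an unadjusted p under 0.05. Of 8 tested, 4 were lower and 0 higher in siANKRD10-1 (10.6% of all genes called), and 4 were lower and 1 higher in siANKRD10-2 (36.3% of all genes), where PI3, the protease inhibitor elafin, fell by 1.70 (SE 0.09, adjusted p = 1.8e-13) after -0.88 (SE 0.09, adjusted p = 2.6e-06, edgeR) in siANKRD10-1.

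Of the transcription factors known at these genes, 1 of 10 was called by edgeR in ANKRD10-1 and 3 of 10 in ANKRD10-2, all lower. In KO1 5 were higher and 1 lower (36.1% of all genes called), in KO2 4 higher and 3 lower (38.5%), in siANKRD10-1 1 higher and 5 lower (10.6%), and in siANKRD10-2 1 higher and 6 lower (36.3%). ELF3, an epithelial factor, was at 0.52 (SE 0.05, adjusted p = 3.4e-05) in KO1, -0.58 (SE 0.04, adjusted p = 2.7e-07) in KO2 and -0.85 (SE 0.06, adjusted p = 2.2e-11) in siANKRD10-2, and also 0.50 higher in WT2 than in WT1 (SE 0.04, adjusted p = 0.00013, edgeR).

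Of the binding partners, 4 were higher and 2 lower of 8 tested in KO1 (36.1% of all genes called), 3 higher and 1 lower of 7 in KO2 (38.5%), 0 of 8 by edgeR in ANKRD10-1 (1 at an unadjusted p under 0.05, 1 by DESeq2) and in ANKRD10-2 (1 and 0), 0 higher and 3 lower of 8 in siANKRD10-1, and 2 higher and 2 lower of 8 in siANKRD10-2. HAVCR2, a receptor that binds CEACAM1, rose by 1.08 (SE 0.21, adjusted p = 0.00019) in siANKRD10-2, and MET by 0.51 (SE 0.03, adjusted p = 1.9e-07, edgeR) in KO2. LGALS3 rose by 0.54 (SE 0.09, adjusted p = 0.00058) in KO1 and fell by 0.58 (SE 0.13, adjusted p = 0.00063, edgeR) in siANKRD10-2. SLC22A17 fell in KO1 (-0.49, SE 0.12, adjusted p = 0.0090) and ERBB2 in KO2 (-0.25, SE 0.03, adjusted p = 0.00010, edgeR). PTPN11 fell in siANKRD10-1 (-0.29, SE 0.07, adjusted p = 0.010, edgeR). Few other family members were expressed. MUC2 was the other mucin tested in the knockouts, at 1.96 (SE 0.55, adjusted p = 0.014) in KO2 and 0.83 (SE 1.12, adjusted p = 0.61) in KO1. Of the other mucins tested, 0 of 3 were called in ANKRD10-1 by edgeR or DESeq2 (2 at an unadjusted p under 0.05), and in ANKRD10-2 1 of 2, MUC2, which fell by 1.14 (SE 0.36, adjusted p = 0.037, edgeR). In siANKRD10-1 the 1 other mucin tested was not called by edgeR or DESeq2, with an unadjusted p under 0.05, and in siANKRD10-2 it was the lower MUC2 given above. CEACAM19, the other CEACAM that could be tested, fell in KO1 by 0.60 (SE 0.16, adjusted p = 0.013, edgeR) and was called in no other group by edgeR or DESeq2. It lies on chromosome 19, whose median in KO1 was -0.38. Of the 3 other olfactomedin family genes tested, 2 were lower in KO1, 1 higher and 1 lower in KO2, 1 lower in ANKRD10-2 and 2 higher in siANKRD10-2. In ANKRD10-1 and siANKRD10-1 edgeR and DESeq2 called 0 of 3, with 1 and 2 at an unadjusted p under 0.05. OLFM2, one of the genes within 1 Mb of MUC16, fell by 1.38 (SE 0.22, adjusted p = 0.00053) in KO1 and OLFML2A by 1.06 (SE 0.04, adjusted p = 5.7e-09, edgeR) in KO2.

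The genes whose log2 CPM followed OLFM4 most closely over the 12 knockout-table libraries were PELI2 (Pearson's r = 0.994), ENSG00000233251 (0.992), CXCL6 (0.992), ARID5B (0.991) and IQGAP2 (0.991), among 14309 genes with a mean of at least 50 counts. Over the 9 knockdown libraries, GDF11 (0.990), RBBP8 (0.986), NUDT16 (0.986), LHFPL4 (0.982) and WBP4 (0.982) followed MUC6. These points share the same groups of 3 libraries, so the values mostly describe which groups are high and low.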

How the data were processed

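The authors deposited 3 tables of raw counts per gene, without normalization. The submitters' processing notes name Trimmomatic 0.36, featureCounts, Subread 1.5.1 and GRCh38; the study's methods name HISAT2 and StringTie, and use of strand in counting is not given in the sources used here. Counts of 2 were 3.81 times as frequent as counts of 1 in the knockdown table and 2.82 times in the overexpression table (0.647 in the knockout table); a count in the former 2 may not stand for 1 fragment. The cause was not tested. Intervals cover counting error only.

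Genes were filtered (filterByExpr, minimum count 10, total 15), scaled by TMM and tested with edgeR 4.0.16 (R 4.3.3) quasi-likelihood, 3 against 3 libraries, threshold adjusted p 0.05. SE is the log2 fold change over the root of F. Fits were tested on simulated data. Alternatives were RLE scaling, DESeq2 1.42.0, no filter, all groups in 1 fit, a replicate block, each library left out and, for knockouts, all 6 WT libraries. Coordinates, overlaps and shared 75-base stretches are from GENCODE on GRCh38, whose gene bounds equal those in the overexpression and knockdown tables for all 10 genes. Repeats within MUC1, MUC4 and MUC20 transcripts covered 37.1, 17.6 and 18.1% of their 75-base stretches, and 17.8% of CEACAM5's occur in another gene.

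The 10 genes and the lists (other mucins, other CEACAMs, olfactomedin family, O-glycosylation enzymes, secretory and goblet cell genes, mucosal defence genes, binding partners, transcription factors; cell type markers) were chosen with earlier results of these data known. Genes named from a list are among those with the largest rise or fall past the threshold and a mean of at least 50 counts. Not all genes of this rule are named, and MUC2 in the knockouts is an exception to it. A gene that this rule names among the transcription factors is not reported here.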

Additional observations from a re-analysis of the deposited data

Results flagged for a closer look

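Only the 10 genes and the list genes with the largest rise or fall in a comparison were searched here. Among them, every library of 1 knockout moved one way and every library of the other the opposite way for 6 genes. The log2 fold changes in KO1 and KO2 were 0.87 and -1.93 for MUC1, -0.88 and 0.50 for CEACAM1, 0.48 and -2.17 for S100P, -0.29 and 0.34 for S100A7, 0.42 and -0.16 for CEBPB, and 0.52 and -0.58 for ELF3. After the siRNAs the same was seen for S100A7, at -0.20 in siANKRD10-1 and 0.27 in siANKRD10-2, and for PTPN11, at -0.29 and 0.12. These differences between groups were not tested. For some of them the controls differed too. ELF3 was 116 to 130 CPM in KO1, which overlapped the 121 to 126 of WT2, and 81.8 to 83.9 CPM in KO2, beside 85.4 to 88.3 in WT1. S100A7 in KO1 (10.6 to 12.2 CPM) overlapped WT2 (9.57 to 12.3), and in KO2 (12.7 to 15.2) it overlapped WT1 (13.2 to 15.8). MUC1 in KO1 overlapped WT2, and its fold change was 0.29 with all 6 WT libraries as controls.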

How the results depend on the processing

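Of 676 values of fold change under an alternative, 608 kept their direction and their side of the threshold, and the number of genes past the threshold stayed within 1.5 times in 85 of 90. Leaving out 1 library gave 3 to 5 genes called in ANKRD10-2 against Vector, 1 to 3 in siANKRD10-1, 1 to 3 in siANKRD10-2 (MUC16 was -0.19 without siANKRD10-2 replicate 2), and DESeq2 gave 1 in WT2 against WT1. Values near 0 changed sign when a library was left out, with these ranges: MUC1 -0.018 to 0.052 and MUC6 -0.24 to 0.085 in ANKRD10-1, CEACAM1 -0.054 to 0.22 in siANKRD10-1, MUC1 -0.12 to 0.11 in siANKRD10-2, LCN2 -0.040 to 0.036 between the ANKRD10 forms, and CEACAM5 -0.58 to 0.36, CEACAM1 -0.24 to 0.029 and MUC4 -0.079 to 0.19 between the WT groups. CEACAM5 was at 0.052 there with the replicate block. The causes were not tested.

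Same-numbered libraries correlated at -0.03 to 0.17 in their deviations from the group means. In ANKRD10-2 against Vector, same-numbered pairs were at 0.064 to 0.16 and all exceeded the others, which reached 0.039. In KO2 against WT2 they were at 0.061 to 0.078, against at most -0.0095. Elsewhere they did not all exceed the others. The labels do not say whether libraries were paired. With the replicate block the counts of genes called stayed within 1.5 times. As values without a test, MUC1 in KO1 ranged from 0.29, with all 6 WT libraries, to 1.05 over the 12 alternatives, and in KO2 CEACAM1 ranged from 0.40 to 0.55 and CEACAM6 from -7.29 to -2.52. CEACAM5 in KO2 ranged from -6.59, without KO2 replicate 2, the library that holds all 15 of its KO2 counts, to -0.36. At 1 count a library of the knockout table reads 0.0141 to 0.0228 CPM, which limits CEACAM5, CEACAM6 and MUC6 there.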
